A study of Mus musculus with 12 samples.

Results

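The comparison of cultured astrocytes labelled Ogt cKO (conditional knockout) with their own control rests on 4 of the 12 libraries of the series, 2 per group. Its members are the 12633 of 54532 genes in the deposited table that reached at least 1 FPKM in at least 2 of these 4 libraries. Of them, 11420 are protein coding. FPKM is reads per gene, corrected for how long the gene is and for a size set per library, which here differed from the reads on genes. A gene is said below to have risen or fallen in the cKO when limma on log2(FPKM + 1), with Benjamini-Hochberg adjustment over all 12633 genes, gave an adjusted p under 0.05 and both libraries of one group also lay above both of the other. Every log2 difference below is cKO minus control in log2(FPKM + 1), which understates the change of genes near 0, and every adjusted p comes from that fit.

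OGT is the nuclear and cytoplasmic enzyme that links O-GlcNAc, a single sugar, to serines and threonines of proteins. OGA, listed here under its older symbol Mgea5, removes it. The donor sugar, UDP-GlcNAc, is made from glucose, glutamine, acetyl-CoA and UTP by the hexosamine pathway. The modification is often described as a nutrient sensor, and it is placed on transcription factors, RNA polymerase II, ribosomal proteins and signalling proteins. Astrocytes supply lipids, lactate and glutamine to neurons, clear potassium and glutamate, and change their gene expression in injury and in culture.

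The cultures were started from hippocampus and cortex of adult mice of strain C57BL/6. Cells were freed with trypsin and papain and grown in astrocyte medium, with no sorting described. Both groups are labelled 4 months old, untreated and Glast-CreERT2::Ogtfloxp/Y, a single X-linked floxed Ogt allele with a tamoxifen-dependent Cre under the promoter of the glutamate transporter gene Glast (Slc1a3), and no tamoxifen is described. Only the sample titles and descriptions tell the knockout from the control, whose titles begin with WT. The labels leave unsaid if the 2 replicates stand for different animals or cultures. The p-values rest on a spread between replicates estimated over all 12 libraries, those of the other experiments included. That spread may be technical, and it is not that of these 4 libraries alone. The untreated wild-type cultures of the other experiments, 2 libraries of 6-month-old and 2 of 2-month-old C57BL/6 mice, are used below as a background of the same kind of culture; they differ in age and experiment from the 4 libraries compared.

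Ogt was at 20.8 and 24.7 FPKM in the control and 11 and 12 in the cKO libraries (log2 difference -0.92, SE 0.30, adjusted p = 0.035). Mgea5 was at 43.4 and 43 FPKM in the control and 16.6 and 15.9 in the cKO libraries (log2 difference -1.36, SE 0.38, adjusted p = 0.018). Neither pair of groups overlapped, but Ogt in the other wild-type cultures was at 10.0 and 22.7 in the 6-month and 7.85 and 10.4 in the 2-month wild-type libraries, so the cKO level lay within their range. These are values for a gene as 1 unit, with none for single exons such as the floxed ones. With any 1 of the 4 libraries left out, both genes kept their direction and lost the call (limma with Benjamini-Hochberg adjustment, adjusted p = 0.082 to 0.17 for Ogt and 0.073 to 0.086 for Mgea5). In the 17 tested genes of the hexosamine pathway and O-GlcNAc cycling, 5 rose and 5 fell (median log2 difference 0.05, negative under quantile normalization and under rescaling to the total of reads). The hexokinase gene Hk2 went from 4.55 and 2.9 to 15.1 and 14.2 FPKM (1.75). Gfpt2, which encodes a form of the rate-limiting amidotransferase of the pathway, went from 1.38 and 1.72 to 5.63 and 5.37 FPKM (1.36). The other risers were Pgm3 and Uap1, which act at its later steps (0.78 and 0.70), and Eogt, the O-GlcNAc transferase of the secretory pathway (0.62). Gfpt1, the main amidotransferase gene, was at 7.7 and 8.23 FPKM in the control and 7.76 and 8.1 in the cKO libraries. Besides Ogt and Mgea5, the glucosamine-6-phosphate deaminase genes Gnpda1 (from 35 and 30.4 to 13.6 and 10.5 FPKM, -1.38) and Gnpda2 (-0.69), which run the pathway backwards, and the Golgi UDP-GlcNAc transporter gene Slc35a3 (-0.39) fell. Without 1 of the 4 libraries in turn, 2 to 4 of these genes rose and 1 fell.

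On the deposited scale, most tested genes of the ribosome, the proteasome, contractile and actin-binding proteins and the plasminogen system rose in the cKO. Most glial lineage factors fell, and genes of lysosomes, autophagy and lipid transport fell more often than they rose. In all, 3153 genes rose and 2759 fell, 46.8% of the genes tested (25% higher, 21.8% lower), and 85.7% of genes had groups that did not overlap. Of the 5912 called genes, 2308 had a log2 difference of at least 1 in size, 1404 upward and 904 downward; 116 rose and 27 fell by at least 3. The share of calls that were higher was 53.3% on the deposited scale and 35.2% (2198 higher, 4047 lower) after rescaling to the total of reads, which moved the median of all genes by -0.22. Without 1 of the 4 libraries, 1115 to 1867 genes rose and 667 to 1348 fell. Of the called genes named here that could be tested without a given library, 104 of 166 kept the call without control replicate 2 and 134 of 166 without control replicate 1. Without cKO replicate 1, 106 of 154 kept it, and without cKO replicate 2, 116 of 154. None of these called genes changed direction. The libraries held 17128294 to 18705309 reads on genes. Because nearly every second gene was called, each count in a gene or marker list below is to be read against these shares. No list is said to stand apart. In any list, a member that passed the filter through 1 group alone had to be higher in that group. The share called either way was near 46.8% for metalloproteinase genes (47.1%) and chaperones (44.7%). It was lower for splicing genes (37.9%), interferon genes (26.7%) and the 15 listed genes of the mitochondrial genome (20%), and higher for others, such as ribosomal protein genes (93.9%).

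Markers of several cell types differed between the groups. Summed astrocyte markers were at 637 and 767 FPKM in the control and 170 and 184 in the cKO libraries (185 to 569 in the 4 other wild-type libraries), with 7 of 10 lower. Aldh1l1 (8.91 and 9.2 FPKM in the control, 6.9 and 10.7 in the cKO) and Gja1 were not called. Microglia and macrophage markers summed to 9850 and 7840 FPKM in the control and 4380 and 3270 in the cKO libraries (1250 to 4130), with 10 of 17 lower and P2ry12 below the filter. The macrophage gene Adgre1 was at 82 and 57.5 FPKM in the control and 82 and 63.2 in the cKO libraries. Oligodendrocyte lineage markers summed to 216 and 424 FPKM in the control and 71.7 and 69.4 in the cKO libraries (9 of 10 lower). Schwann and ensheathing glia markers summed to 188 and 280 FPKM in the control and 94.2 and 91.3 in the cKO libraries (6 of 8 lower). Endothelial markers summed to 108 and 76.5 FPKM in the control and 383 and 356 in the cKO libraries (9 of 15 higher, 165 to 508 in the other wild-type libraries). Smooth muscle contractile genes summed to 1890 and 948 FPKM in the control and 7410 and 7540 in the cKO libraries (12 of 16 higher, 3220 to 7930). Neuron markers summed to 111 and 187 FPKM in the control and 121 and 95.3 in the cKO libraries. Of the 12 listed, 3 were tested, 1 of them higher and 1 lower. The neuronal gene Snap25, also in that list, was at 0 in all 4 libraries. Xist, expressed in female cells, was at 0 in all 4 as well, and the genotype label gives 1 Ogt allele and a Y chromosome. In bulk RNA, fewer cells of a type and less RNA per cell cannot be told apart, and the part of the makeup of the cultures in the results below was not tested.

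The cKO libraries lay nearer to wild-type cultures of another experiment than to their own control. Correlations are across genes, which are not independent replicates. The cKO libraries correlated at 0.973 to 0.98 with the 2-month wild-type libraries and at 0.848 to 0.874 with the control. The second 6-month wild-type library correlated at 0.955 to 0.96 with the control and 0.872 to 0.88 with the cKO. For the first 6-month library these were 0.885 to 0.901 and 0.931 to 0.94. The 2 libraries of the 6-month group correlated at 0.942, so they differed in which group they resembled. Of the 3153 genes that rose, the control lay below all 4 other wild-type libraries in 1482 (47%) and the cKO above all 4 in 783 (24.8%); over all genes tested the shares are 15.8% and 10.8%. Of the 2759 that fell, the control lay above all 4 in 1605 (58.2%) and the cKO below all 4 in 655 (23.7%), against 22.8% and 7.46% of all genes. In contrasts of the same fit against the mean of these wild-type groups, 1736 of the risers passed the test for the control alone, 130 for the cKO alone, 57 for both and 1230 for neither. For the genes that fell the counts were 1500, 165, 71 and 1023. The libraries, and thus the errors, are shared between these contrasts. For several genes below, the other wild-type levels are therefore given.

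**Figure D1:**
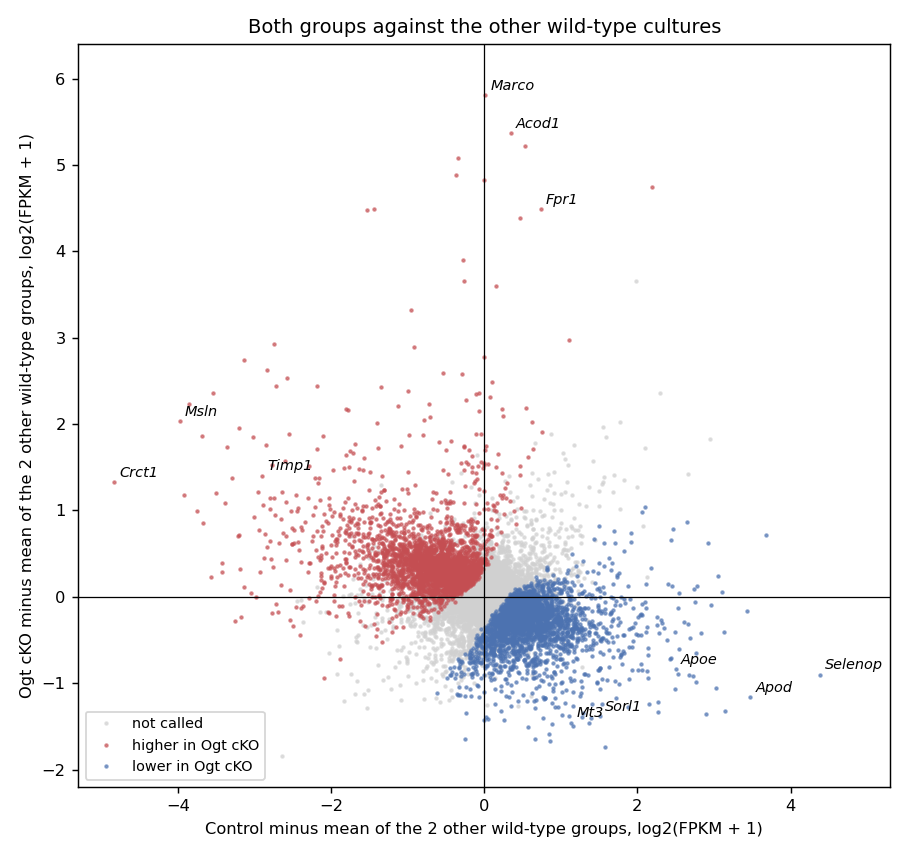
Difference in log2(FPKM + 1) from the mean of the 6-month and 2-month wild-type groups, for the control (horizontal axis) and the Ogt cKO (vertical axis), 1 point per tested gene; red points rose and blue points fell in the cKO against its control. Crct1 and Msln lie far to the left, where the control is below the other wild-type cultures, and Apoe and Selenop to the right. Marco, Acod1 and Fpr1 lie high on the vertical axis, with the control between 0 and 1.

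**Figure D2:**
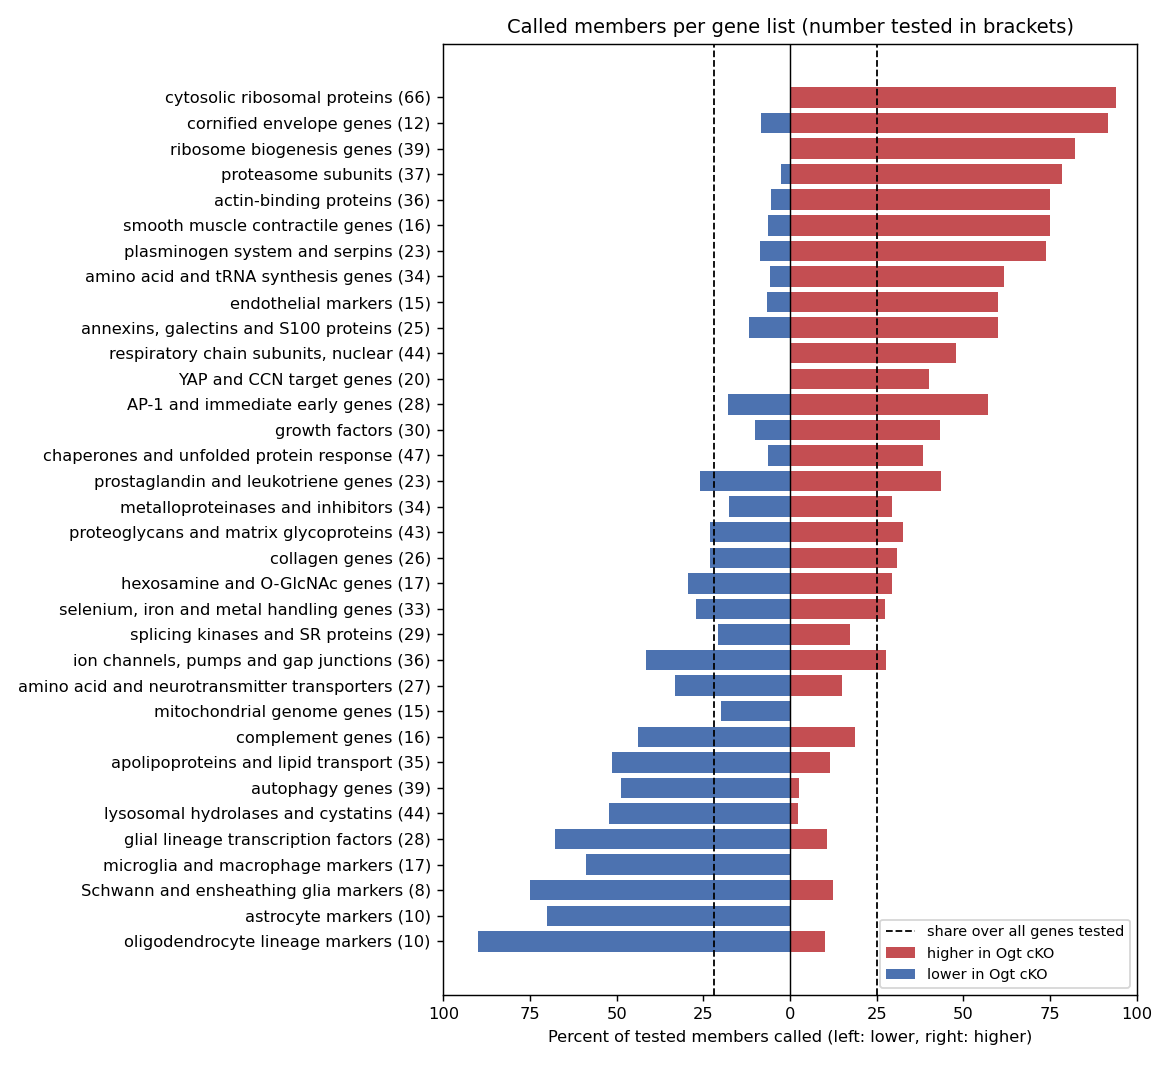
Percent of the tested members of 34 gene lists that were called higher (red, to the right) or lower (blue, to the left) in the Ogt cKO, with the number tested in brackets; dashed lines mark 25% and 21.8%, the shares over all 12633 genes. Ribosomal protein, cornified envelope and ribosome biogenesis genes lie at the top, and glial markers, lysosomal, autophagy and lipid transport genes at the bottom. Only 4 of the 12 cornified envelope genes passed the filter with either cKO library left out.

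**Figure D3:**
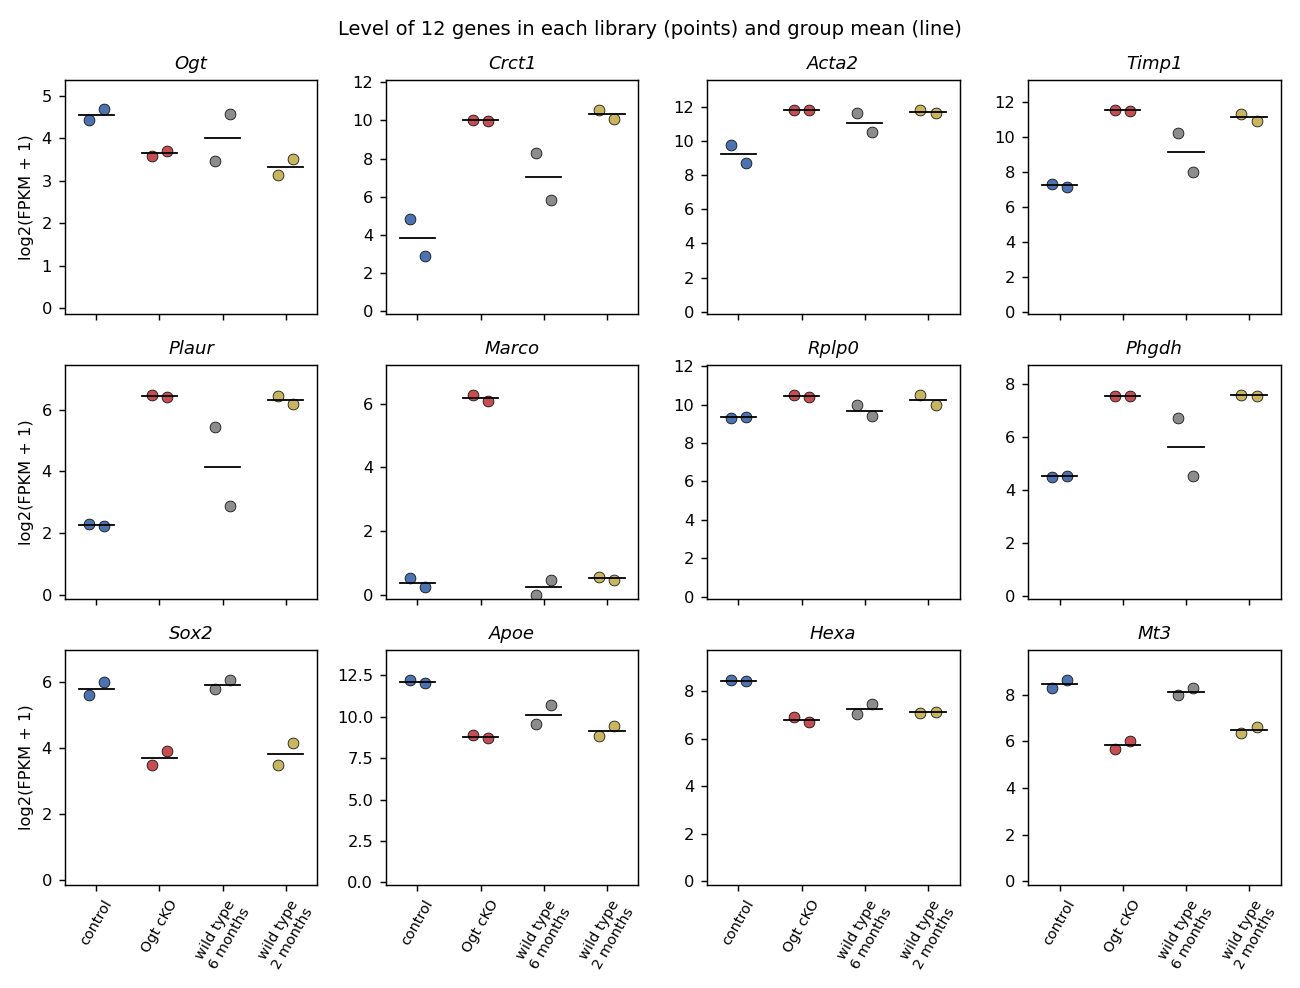
Level of 12 genes as log2(FPKM + 1) in each library of the control, the Ogt cKO and the wild-type groups of 6 and 2 months (2 points and a line at their mean per group). Of these 8 libraries, Marco is high in the 2 cKO libraries alone, whereas the cKO points of Crct1, Acta2, Phgdh and Sox2 lie at the height of the 2-month group.

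Genes of the cornified envelope, the protein shell of dying keratinocytes of the skin, were found in the cKO cultures and were low or absent in the control. Of 42 listed, 12 passed the filter on low values, and of these 11 rose and 1, the hair follicle gene Tchh (from 2.92 and 3.26 to 1.31 and 1.45 FPKM), fell. The median was 2.60, also with the genes absent from the control at their lower bound, and 3 to 8 rose without 1 library. With a pseudocount of 0.1 the median was 4.78. A member that passed the filter through the cKO libraries alone had to be higher there. Only 4 of the 12 passed it with either cKO library left out, against 12 with either control library left out. Together they summed to 33.2 and 10.9 FPKM in the control and 1190 and 1180 in the cKO libraries. Most stand side by side in the epidermal differentiation complex, which from Lor to Tchh spans chr3:92080271-93449077 (mm10) and holds 55 protein coding genes in the table, of which 12 were tested, 10 rose and 1 fell. Crct1 (chr3:93014205-93015687), a small cysteine-rich gene of that complex, was at 27.4 and 6.43 FPKM in the control and 1054 and 1010 in the cKO libraries (log2 difference 6.15, SE 0.84, adjusted p = 0.0016). It was at 316 and 55.1 in the 6-month and 1498 and 1086 in the 2-month wild-type libraries. Ivl, which encodes the envelope scaffold involucrin, had no read in either control library and 14.5 and 14.3 FPKM in the cKO, at least 181-fold higher taking 3 reads in each control library as the floor. Lce1g had no control read either and was at 6.53 and 6.6 FPKM, at least 39.9-fold higher. Lce1h and Sprr1a had 1 read in control library 1 and none in the other, against 669 and 916 and 352 and 396 reads in the cKO libraries, ratios of 1970-fold (353 to 77800) and 929-fold (166 to 36800) with exact 95% counting intervals. Lor, for loricrin (from 1.73 and 0.79 to 12.5 and 12.8 FPKM, 2.62), and Tgm1, for the transglutaminase that crosslinks the envelope (from 1.01 and 0.445 to 8.3 and 9.94 FPKM, 2.57), rose as well. Ivl was the only member that rose above all 4 other wild-type libraries, and there it was at 11 and 0.132 in the 6-month and 10.6 and 13.9 in the 2-month wild-type libraries. Sprr1a was at 5.11 and 0 in the 6-month and 46.5 and 15.6 in the 2-month wild-type libraries, so the cKO level lay within that range.

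Other epithelial genes moved with them. The keratin gene Krt19 was at 1.4 and 0.261 FPKM in the control and 83.8 and 77.1 in the cKO libraries (log2 difference 5.55, SE 0.64, adjusted p = 0.00095). The surface glycoprotein gene Msln was at 0.427 and 0.115 FPKM in the control and 83.9 and 76.6 in the cKO libraries. Both are in the list of mesothelial markers, whose other tested member, the membrane glycoprotein gene Gpm6a, fell from 29.8 and 44.2 to 2.43 and 2.23 FPKM (log2 difference -3.48, SE 0.33, adjusted p = 0.00052). Krt8, Krt18, Wt1 and 8 other members did not pass the filter. Among channel and junction genes, the epidermal connexin gene Gjb5 had no control read and 5.02 and 3.62 FPKM in the cKO. The vascular connexin gene Gja4 (from 0.63 and 0.345 to 17.2 and 18.8 FPKM), the water channel gene Aqp1 (from 1.21 and 0.775 to 15.5 and 15.3 FPKM) and the mechanosensitive channel gene Piezo1 (from 14 and 11.5 to 52.6 and 51 FPKM) rose. Several glial members fell. Atp1b2, a sodium pump subunit, was at 118 and 145 FPKM in the control and 11.9 and 12.6 in the cKO libraries (log2 difference -3.32, SE 0.38, adjusted p = 0.00093). The inward rectifier Kcnj10, which buffers potassium, was at 24.3 and 29.7 FPKM in the control and 4.44 and 5.47 in the cKO libraries (-2.23). The potassium channel Kcna6 was at 7.02 and 13.4 FPKM in the control and 1.52 and 1.1 in the cKO libraries (-2.22). Of the 36 channel, pump and junction genes tested, 10 rose and 15 fell (median -0.23; 3 to 8 and 7 to 10 without 1 library). The other wild-type levels of Kcnj10 were 42.7 and 25.6 in the 6-month and 4.62 and 5.46 in the 2-month wild-type libraries, and the 2-month values were the nearer to the cKO.

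The 250 bases before the start of several of these genes hold the AP-1 element TGANTCA, the site bound by FOS and JUN family dimers. In RefSeq promoters of GRCm38.p6, read on both strands, it occurs in 7.82% of 27025 genes. Among tested genes it was found in 3 of the 10 cornified envelope genes with a promoter in that table (30%; Sprr1a, Lor and Ivl), in 6 of 17 plasminogen system and serpin genes (35.3%; Plaur, Serpinb2, Serpinb8, F3, Tfpi2 and Procr). It was found in 5 of 20 metalloproteinase and inhibitor genes (25%; Mmp3, Mmp10, Mmp12, Mmp13 and Adam19) and in 1 of 49 ribosomal protein genes (2.04%). The shares in other lists were 12.5% (actin-binding genes), 11.1% (lysosomal genes, which fell more often than they rose), 10% (growth factors) and 0% (autophagy genes). The promoters of 9 cornified envelope genes that did not pass the filter hold it as well, among them Sprr1b and Flg. A match describes these letters and is no evidence of binding. Promoters of 5 members with large rises are shown 5′ to 3′ on the strand of the gene, ending at the base before its start, with the element in capitals. The windows are chr3:92485882-92486131, minus strand for Sprr1a, chr3:92573736-92573985, minus strand for Ivl, chr9:7445572-7445821, plus strand for Mmp3, chr9:7502092-7502341, plus strand for Mmp10 and chr7:24462233-24462482, plus strand for Plaur.
Sprr1a: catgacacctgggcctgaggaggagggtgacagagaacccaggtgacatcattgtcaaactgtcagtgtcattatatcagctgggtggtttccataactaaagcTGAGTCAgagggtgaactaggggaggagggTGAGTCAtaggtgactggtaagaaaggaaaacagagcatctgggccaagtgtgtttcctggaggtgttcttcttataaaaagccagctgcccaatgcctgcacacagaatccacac
Ivl: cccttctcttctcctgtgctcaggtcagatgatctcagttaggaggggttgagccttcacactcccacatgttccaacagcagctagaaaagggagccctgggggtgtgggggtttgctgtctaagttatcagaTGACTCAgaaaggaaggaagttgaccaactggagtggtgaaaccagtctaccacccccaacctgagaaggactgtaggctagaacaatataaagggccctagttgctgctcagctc
Mmp3: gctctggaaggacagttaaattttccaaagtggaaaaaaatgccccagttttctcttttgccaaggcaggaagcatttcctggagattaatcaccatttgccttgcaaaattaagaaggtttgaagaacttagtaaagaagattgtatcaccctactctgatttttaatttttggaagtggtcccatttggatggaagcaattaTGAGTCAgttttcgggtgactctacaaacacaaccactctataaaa
Mmp10: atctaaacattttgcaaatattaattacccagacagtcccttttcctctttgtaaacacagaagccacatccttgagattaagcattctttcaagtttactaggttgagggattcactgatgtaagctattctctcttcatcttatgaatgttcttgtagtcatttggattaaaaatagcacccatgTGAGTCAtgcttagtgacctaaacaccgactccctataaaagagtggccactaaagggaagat
Plaur: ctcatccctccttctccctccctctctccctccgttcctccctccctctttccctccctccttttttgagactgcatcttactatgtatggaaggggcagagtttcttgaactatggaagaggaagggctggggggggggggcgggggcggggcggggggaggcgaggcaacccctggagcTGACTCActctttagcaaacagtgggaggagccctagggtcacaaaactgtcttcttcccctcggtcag
Sprr1a holds the element at 2 places, 146 and 116 bases before the start, and each of the other 4 at 1 place, 46 to 116 bases before it.

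Proteases of the plasminogen system and their serpin inhibitors mostly rose. With either cKO library left out, 18 of the 23 passed the filter, and members that passed it through the cKO alone had to be higher there. Of 23 tested, 17 rose and 2 fell (median 1.49; 8 to 13 rose without 1 library). Plaur, the receptor of urokinase, was at 3.95 and 3.74 FPKM in the control and 88.1 and 84 in the cKO libraries (log2 difference 4.17, SE 0.68, adjusted p = 0.0028). Its ligand gene Plau was at 11.5 and 7.99 FPKM in the control and 53.5 and 51.4 in the cKO libraries (2.33). Serpinb2, which encodes an inhibitor of urokinase, was at 0.0904 and 0.0619 FPKM in the control and 32 and 43.7 in the cKO libraries (log2 difference 5.16, SE 1.05, adjusted p = 0.0058), above its 0.152 to 18.6 FPKM in the other wild-type libraries. Plat, for tissue plasminogen activator, which glia and neurons make, went the other way, at 40.3 and 52.2 FPKM in the control and 19.2 and 21.1 in the cKO libraries (-1.15).

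Matrix metalloproteinases did not move as one group. Of 34 metalloproteinase and inhibitor genes tested, 10 rose and 6 fell (median 0.43; 3 to 6 and 2 to 3 without 1 library), shares near those of all genes. After rescaling to the total of reads 10 rose and 9 fell, and without the filter 6 rose and 5 fell. The risers included a cluster on chromosome 9. Stromelysin Mmp3 was at 0.354 and 0.511 FPKM in the control and 80.7 and 86.5 in the cKO libraries (log2 difference 5.88, SE 1.01, adjusted p = 0.0034), above its 0.509 to 45.5 FPKM in the other wild-type libraries. Collagenase Mmp13 was at 2.03 and 1.18 FPKM in the control and 17.4 and 16.3 in the cKO libraries (2.79). Mmp10 had no control read and 12.6 and 11.2 FPKM in the cKO, at least 135-fold higher. Timp1, the inducible inhibitor of these proteases, was at 159 and 140 FPKM in the control and 2993 and 2917 in the cKO libraries (log2 difference 4.30, SE 0.57, adjusted p = 0.0014) and 254 to 2587 in the other wild-type libraries. The membrane protease gene Mmp15 (from 9.67 and 12.3 to 2.41 and 2.15 FPKM, -1.86) and Adam10, which encodes the sheddase of Notch and of the amyloid precursor protein (from 38.6 and 41 to 18.8 and 20.7 FPKM, -0.97), fell.

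Matrix glycoproteins were divided in the same way. Of 43 proteoglycan and glycoprotein genes, 14 rose and 10 fell (median 0.60; 6 to 8 and 6 to 9 without 1 library). In this list 10 rose and 13 fell under quantile normalization (median 0.38), and 11 rose and 13 fell after rescaling to the total of reads (median 0.39). The largest rise was that of the elastic fibre gene Fbln2, from 31.6 and 14.9 to 567 and 480 FPKM (log2 difference 4.52, SE 0.59, adjusted p = 0.0014). Osteopontin (Spp1) went from 403 and 336 to 3836 and 3284 FPKM (3.27). Elastin (Eln) went from 2.26 and 0.982 to 14.3 and 23.7 FPKM (2.94). The hyaluronan synthase gene Has2 went from 0.301 and 0.343 to 12.1 and 15.6 FPKM (3.48). The hyaluronan receptor gene Cd44 went from 23.1 and 17.5 to 164 and 153 FPKM (2.92). Spp1 and Cd44 lay above all 4 other wild-type libraries, where they were at 384 to 2757 and 26.2 to 114 FPKM. Matn2 (from 29.7 and 50.5 to 2.54 and 2.03 FPKM, -3.60) and Fbln1 (from 155 and 167 to 30.0 and 32.3 FPKM, -2.34) fell. Of 26 collagen genes 8 rose and 6 fell (median 0.22; 1 to 2 and 1 to 6 without 1 library). Of the collagens 3 rose and 7 fell under quantile normalization (median 0.02), and 4 rose and 8 fell after rescaling to the total of reads (median 0.00). Without the filter 4 rose and 6 fell. Col5a3, Col7a1 and Col10a1 rose most (3.20, 2.97 and 2.79) and Col8a2 fell most (from 18.3 and 20.1 to 0.198 and 0.181 FPKM). The fibrillar Col1a1 was at 351 and 400 FPKM in the control and 677 and 669 in the cKO libraries and was not called.

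Contractile and actin-binding genes mostly rose. The contractile genes also mark smooth muscle cells and are the set whose sum is given above. Of 16 smooth muscle contractile genes 12 rose and 1, Synpo2, fell (median 2.12; 3 to 11 rose without 1 library). Smooth muscle gamma actin (Actg2) was at 46.7 and 19.9 FPKM in the control and 665 and 738 in the cKO libraries (log2 difference 4.47, SE 0.98, adjusted p = 0.0078). Calponin (Cnn1) was at 28.4 and 12.7 FPKM in the control and 264 and 300 in the cKO libraries (3.82). Alpha actin (Acta2) was at 870 and 420 FPKM in the control and 3589 and 3600 in the cKO libraries (2.57). The 2 control libraries differed by more than 2-fold in these genes, and neither reached a cKO library. Of 36 other actin-binding protein genes 27 rose and 2, Marcks and Tln2, fell (median 1.11; 12 to 21 rose without 1 library). With quantile normalization 17 rose and 3 fell (median 0.65). Fascin (Fscn1), which bundles filaments in protrusions, went from 26.7 and 25.8 to 232 and 241 FPKM (log2 difference 3.12, SE 0.61, adjusted p = 0.0053). In the target list of YAP and TEAD, which report tension and spreading of cells, 8 of 20 rose and none fell (median 0.49; 1 to 5 rose without 1 library). Under quantile normalization 5 of them rose, and 6 after rescaling to the total of reads. Ankrd1 was at 5.23 and 2.44 FPKM in the control and 39.7 and 37.8 in the cKO libraries. Ctgf was at 619 and 501 FPKM in the control and 994 and 988 in the cKO libraries.

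Calcium-binding and lectin genes followed the same direction. Of 25 annexin, galectin and S100 genes 15 rose and 3, Lgals4, Anxa11 and Anxa4, fell (median 1.25; 7 to 14 rose without 1 library). With either cKO library left out, 21 of the 25 passed the filter, and members that passed it through the cKO alone had to be higher there. The median was at least 0.94 with any 1 library left out. S100a6 was at 183 and 155 FPKM in the control and 1875 and 1795 in the cKO libraries (log2 difference 3.44, SE 0.60, adjusted p = 0.0036). Galectin 1 (Lgals1) was at 411 and 211 FPKM in the control and 2991 and 2830 in the cKO libraries (3.30). Anxa1, which encodes a phospholipid-binding protein that mediates glucocorticoid action, went from 108 and 74.8 to 445 and 442 FPKM (2.29).

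Growth factors rose more often than they fell. With 1 cKO library left out, 24 or 25 of the 30 passed the filter, and members that passed it through the cKO alone had to be higher there. Of 30 tested, 13 rose and 3 (Fgf5, Ptn and Fgf18) fell (median 0.68; 7 to 9 rose without 1 library). Without the filter the median was 0.34, and with a pseudocount of 0.1 it was 1.07. The neurotrophin gene Bdnf went from 2.48 and 1.18 to 8.64 and 10.1 FPKM (1.91). Among angiogenic factors, Vegfa went from 14.1 and 9.91 to 59.6 and 74.9 FPKM (2.40). Placental growth factor (Pgf) went from 2.72 and 1.59 to 40.4 and 39 FPKM (3.71). Angptl4, which inhibits lipoprotein lipase, went from 5.31 and 4.38 to 56.2 and 58.6 FPKM (log2 difference 3.32, SE 0.45, adjusted p = 0.0015). The platelet-derived factor Pdgfb rose by 2.42 and the EGF receptor ligand Ereg by 2.74 on the log2 scale. In 6 of the risers, Angptl4, Pdgfb, Ereg, Vegfc and Fgf7 among them, both cKO libraries lay above all 4 other wild-type libraries. In the same cultures 9 of 15 endothelial markers rose, among them Esam (from 6.09 and 2.89 to 76.1 and 81.6 FPKM) and Cldn5 (from 2.14 and 1.06 to 19.4 and 18.6 FPKM). Only 7 of the 15 passed the filter with either cKO library left out. Those that passed it through the cKO libraries alone had to be higher there. Slco1a4, a transporter gene of brain endothelium, fell (from 6.32 and 7.56 to 0.208 and 0.457 FPKM). Without 1 library, 2 to 7 of these markers rose.

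Genes of the ribosome rose. Of 66 cytosolic ribosomal protein genes 62 rose and 0 fell (median 1.14; 30 to 48 rose without 1 library), against 25% of all genes. Of these genes 33 rose and 0 fell under quantile normalization (median 0.50). Their sum was 12000 and 11900 FPKM in the control and 26400 and 25200 in the cKO libraries, within the range of 12000 to 27200 in the other wild-type libraries. Rpsa, which encodes the laminin receptor subunit, was at 188 and 185 FPKM in the control and 556 and 530 in the cKO libraries (log2 difference 1.54, SE 0.27, adjusted p = 0.0035). Rpl12 was at 75.3 and 75.2 FPKM in the control and 228 and 220 in the cKO libraries (1.56). The stalk protein gene Rplp0 was at 639 and 662 FPKM in the control and 1445 and 1342 in the cKO libraries (1.10). The 4 members that were not called were Rpl17, Rps29, Rps21 and Rps27, at adjusted p = 0.099, 0.099, 0.12 and 0.27. Ribosomal proteins have many near-identical pseudogenes, between which reads can be split; of 565 processed pseudogenes tested 210 rose and 18 fell (79 to 122 and 4 to 10 without 1 library).

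Genes that build ribosomes and charge tRNAs rose with them. Of 39 ribosome biogenesis genes 32 rose and 0 fell (median 0.84; 15 to 23 rose without 1 library), and 13 of the risers lay above all 4 other wild-type libraries. Nucleophosmin (Npm1) was at 51 and 42.8 FPKM in the control and 140 and 161 in the cKO libraries (log2 difference 1.66, SE 0.35, adjusted p = 0.0069). The box C/D core protein gene Nop56 was at 12.2 and 11.8 FPKM in the control and 36.7 and 37.5 in the cKO libraries (1.55). Fibrillarin (Fbl), the methyltransferase of ribosomal RNA, was at 9.36 and 9.57 FPKM in the control and 27.6 and 27.7 in the cKO libraries (1.45). Of 34 genes of amino acid synthesis and tRNA charging 21 rose and 2 fell (median 0.77), but only 1 to 8 rose without 1 library. The serine synthesis gene Phgdh was at 21.5 and 21.9 FPKM in the control and 186 and 188 in the cKO libraries (log2 difference 3.05, SE 0.67, adjusted p = 0.008). It was at 105 and 21.8 in the 6-month and 191 and 187 in the 2-month wild-type libraries. Bcat1, which transfers the amino group of branched amino acids (from 0.575 and 0.551 to 11 and 11 FPKM), and Gars, the glycine tRNA synthetase (from 32.6 and 30.3 to 116 and 107 FPKM, 1.79), rose too. Glul, the glutamine synthetase gene of astrocytes, went from 220 and 295 to 77.4 and 77.7 FPKM (log2 difference -1.70, SE 0.23, adjusted p = 0.0016).

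Protein breakdown differed by compartment. Of 37 proteasome genes 29 rose and 1, the interferon-inducible catalytic subunit gene Psmb9 (from 2.99 and 2.08 to 0.99 and 1.12 FPKM), fell (median 0.54; 12 to 20 rose without 1 library). The counts depend on the scaling: 16 rose and 1 fell under quantile normalization (median 0.25), and 19 rose and 1 fell after rescaling to the total of reads (median 0.30). Psmd8, of the regulatory lid, went from 66.4 and 55.3 to 166 and 161 FPKM (log2 difference 1.42, SE 0.20, adjusted p = 0.0018). Psma6, of the core ring, went from 82.9 and 84.7 to 163 and 162 FPKM (0.94). Of 47 chaperone and unfolded protein response genes 18 rose and 3 fell (median 0.34; 7 to 9 rose without 1 library). For chaperones 9 rose and 7 fell under quantile normalization (median -0.06), and 13 rose and 5 fell after rescaling to the total of reads (median 0.09). Among these, the subunits of the cytosolic folding chamber Tcp1 (from 34.6 and 32 to 73.9 and 71 FPKM), Cct3 (from 32.1 and 30.5 to 68.3 and 66 FPKM) and Cct5 (from 69.2 and 68.6 to 146 and 140 FPKM) rose. Hspa5, the main chaperone of the endoplasmic reticulum, was not called, at 243 and 229 FPKM in the control and 206 and 220 in the cKO libraries. Of 44 nuclear genes of the respiratory chain 21 rose and 0 fell (median 0.36; 2 to 7 rose without 1 library). In the same list 6 rose and 2 fell under quantile normalization (median 0.05), and 7 rose and 0 fell after rescaling to the total of reads (median 0.12). Cytochrome c (Cycs) went from 17.8 and 14 to 37 and 37.7 FPKM (1.19). Of the 15 genes of the mitochondrial genome tested 0 rose and 3, mt-Nd4 (from 368 and 391 to 230 and 231 FPKM, -0.72), mt-Nd5 and mt-Nd6, fell (median -0.28; 0 to 1 fell without 1 library). Under quantile normalization 6 fell, and 5 after rescaling to the total of reads. These 15 are a chosen list and not all mitochondrial genes tested. Among the 13 mitochondrial tRNA genes tested, 0 rose and 2 fell.

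**Figure D4:**
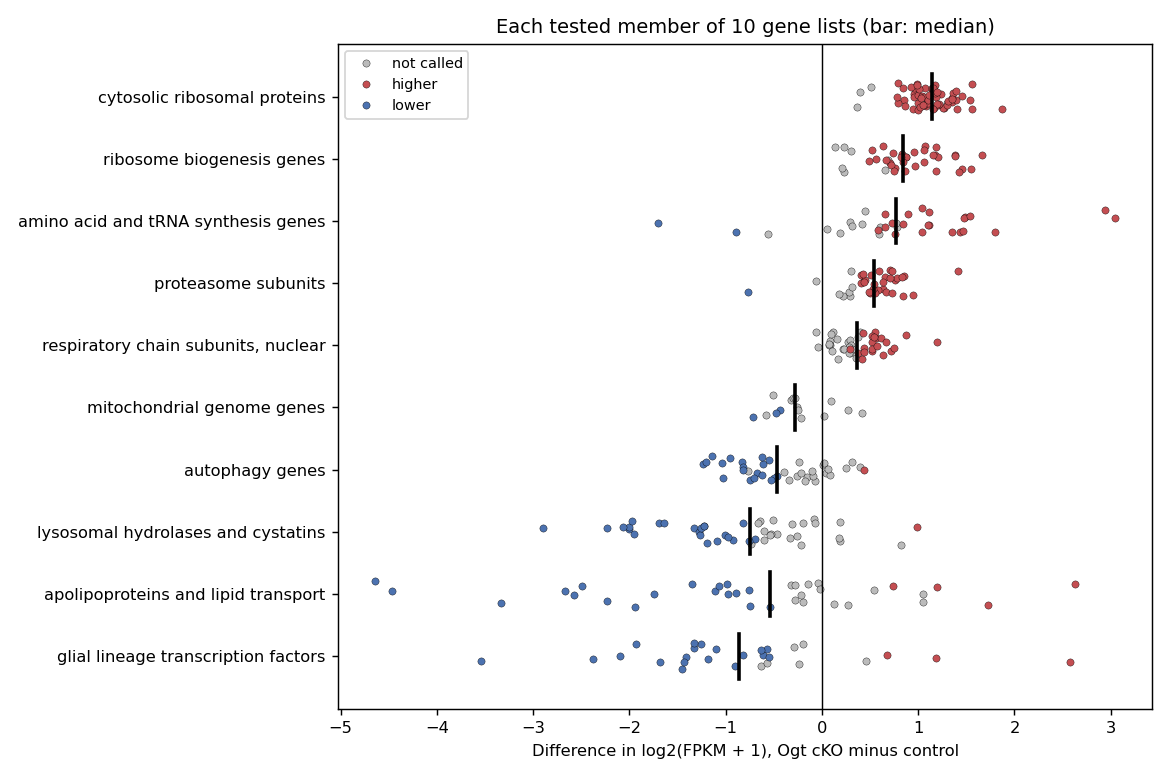
Difference in log2(FPKM + 1), Ogt cKO minus control, of each tested member of 10 gene lists (red higher, blue lower, grey not called; black bar the median). Ribosomal protein genes lie within a narrow band around 1.14, lysosomal and lipid transport genes spread to the left, and the medians of the mitochondrial genome and of the nuclear respiratory chain genes lie on opposite sides of 0.

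Lysosomal genes fell more often than they rose. Of 44 hydrolase and cystatin genes 1 rose and 23 fell (median -0.75; 12 to 15 fell without 1 library), against 21.8% of all genes. They summed to 10600 and 10200 FPKM in the control and 5210 and 4440 in the cKO libraries (5190 to 6350 in the other wild-type libraries). In 21 of the 23 that fell the control lay above all 4 other wild-type libraries, and in 7 the cKO lay below all 4. Cathepsin B (Ctsb) was at 1302 and 1190 FPKM in the control and 420 and 354 in the cKO libraries (log2 difference -1.69, SE 0.35, adjusted p = 0.0061). Legumain (Lgmn) was at 386 and 300 FPKM in the control and 91 and 77.3 in the cKO libraries (-2.01). The hexosaminidase subunit gene Hexa, which degrades gangliosides, was at 350 and 341 FPKM in the control and 118 and 103 in the cKO libraries (log2 difference -1.64, SE 0.26, adjusted p = 0.0028), below its 132 to 173 FPKM in the other wild-type libraries. Cystatin C (Cst3), a secreted cathepsin inhibitor, was at 1706 and 1801 FPKM in the control and 469 and 407 in the cKO libraries (-2). Tfeb, the transcription factor of lysosomal genes, went from 4.42 and 5.57 to 2.28 and 2.47 FPKM (-0.82). Microglia and macrophages are rich in these transcripts, and the summed markers of these cells were lower in the same libraries, as given above. Their part in the fall was not tested.

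Autophagy genes showed the same balance. Of 39 tested 1, Wipi1, rose and 19 fell (median -0.47), but 2 to 7 fell without 1 library and 12 without the filter. The initiating kinase gene Ulk1 was at 18.1 and 19.6 FPKM in the control and 9.04 and 8.41 in the cKO libraries (log2 difference -1.03, SE 0.30, adjusted p = 0.023). Calcoco1, which encodes a receptor for selective autophagy of the endoplasmic reticulum, was at 22.8 and 24.4 FPKM in the control and 9.26 and 9.63 in the cKO libraries (-1.23).

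The CLEAR element TCACGTGA, the site of TFEB and its relatives, reads the same on both strands and occurs in the 250 bases before the start of 0.907% of the 27025 genes. It was found in 4 of the 36 tested lysosomal genes with a promoter in the RefSeq table (11.1%; Ctsa, Ctsd, Gla and Mcoln1), in 2 of 32 actin-binding genes (6.25%), in 1 of 32 autophagy genes (3.12%) and in 1 of 49 ribosomal protein genes (2.04%). Gla and Mcoln1 were not called. Ctsa was at 187 and 184 FPKM in the control and 85.7 and 72.5 in the cKO libraries (-1.22). Ctsd was at 1650 and 1520 FPKM in the control and 928 and 752 in the cKO libraries (-0.92). Their windows, chr2:164833523-164833772, plus strand for Ctsa and chr7:142387828-142388077, minus strand for Ctsd, are shown as above, with the element in capitals, 13 bases before the start of Ctsa and 99 before that of Ctsd.
Ctsa: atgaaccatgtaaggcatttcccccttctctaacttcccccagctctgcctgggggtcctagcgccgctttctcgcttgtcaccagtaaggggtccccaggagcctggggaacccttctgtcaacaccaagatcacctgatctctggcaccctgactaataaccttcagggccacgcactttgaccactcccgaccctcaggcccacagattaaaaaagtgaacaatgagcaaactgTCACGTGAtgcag
Ctsd: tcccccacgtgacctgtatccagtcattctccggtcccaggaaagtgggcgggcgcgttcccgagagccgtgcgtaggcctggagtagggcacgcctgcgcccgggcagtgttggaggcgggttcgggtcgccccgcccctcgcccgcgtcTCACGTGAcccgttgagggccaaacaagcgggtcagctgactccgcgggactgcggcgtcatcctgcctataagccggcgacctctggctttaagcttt
As for AP-1, a match is a description of the sequence.

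Carriers of lipids and selenium held several of the largest falls. The selenium carrier gene Selenop went from 609 and 478 to 14.2 and 11.7 FPKM (-5.28). Of 35 apolipoprotein and lipid transport genes 4 rose and 18 fell (median -0.54; 10 to 15 fell without 1 library). Apoe, the main lipid carrier of the brain, was at 4719 and 4278 FPKM in the control and 468 and 421 in the cKO libraries (log2 difference -3.33, SE 0.38, adjusted p = 0.00095). It was at 752 and 1646 in the 6-month and 464 and 693 in the 2-month wild-type libraries, so that the control stood above each of these 4. Clusterin (Clu) was at 143 and 182 FPKM in the control and 26.9 and 22.4 in the cKO libraries (log2 difference -2.67, SE 0.42, adjusted p = 0.0025), below its 30.9 to 201 FPKM in these. The cholesterol exporter gene Abca1 went from 29.7 and 38.8 to 4.74 and 5.73 FPKM (-2.49). The lysosomal acid lipase gene Lipa went from 163 and 153 to 38 and 28.3 FPKM (-2.23). With either control library left out, 30 of the 35 lipid genes passed the filter, and the median was -0.23 or -0.37. Members that passed it through the control alone had to be lower in the cKO. Of 33 selenium, iron and metal genes 9 rose and 9 fell (median -0.23; 2 to 3 and 4 to 7 without 1 library). This even split did not hold under other scalings, where 5 rose and 14 fell under quantile normalization (median -0.40), and 3 rose and 11 fell after rescaling to the total of reads (median -0.46). Metallothionein 3 (Mt3), the zinc-binding form typical of brain, was at 309 and 393 FPKM in the control and 50.3 and 64.1 in the cKO libraries (log2 difference -2.60, SE 0.28, adjusted p = 0.00077). It was at 251 and 313 in the 6-month and 80.6 and 97.4 in the 2-month wild-type libraries. Metallothionein 1 (Mt1) went from 456 and 558 to 72 and 62.8 FPKM (-2.89). The zinc exporter gene Slc30a1 went from 12 and 14.1 to 4.27 and 4.32 FPKM (-1.41), while the zinc and iron importer gene Slc39a14 went from 8.78 and 8.01 to 13.4 and 13.4 FPKM (0.61). The transferrin receptor gene Tfrc went from 6.02 and 4.6 to 9.22 and 9.47 FPKM (0.72).

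Genes of complement and of prostaglandins moved in both directions. The classical complement genes C1qa (from 1147 and 969 to 205 and 161 FPKM, -2.53), C1qb (-2.71) and C1qc (-2.88) fell. C1qa, C1qb and C1qc are also in the list of microglia and macrophage markers given above, so their fall is counted in both lists. Serping1, which inhibits the first component, rose (from 7.17 and 7.21 to 23 and 21.2 FPKM). Of 16 complement genes in all 3 rose and 7 fell (median -0.38; 4 to 5 fell without 1 library). Of 23 prostaglandin and leukotriene genes 10 rose and 6 fell (median 0.33; 4 to 8 and 0 to 5 without 1 library), and synthases were found in both directions. The inducible cyclooxygenase gene Ptgs2 was at 3.36 and 1.97 FPKM in the control and 94.6 and 96.7 in the cKO libraries (4.75). The prostaglandin E synthase gene Ptges was at 11.5 and 12.3 FPKM in the control and 145 and 128 in the cKO libraries (log2 difference 3.41, SE 0.30, adjusted p = 0.0004), above its 7.64 to 100 FPKM in the other wild-type libraries. The prostacyclin synthase gene Ptgis was at 25.7 and 23.7 FPKM in the control and 155 and 144 in the cKO libraries (2.55), and all 3 rose. Hpgd, which encodes the enzyme that inactivates prostaglandins, was at 18.3 and 16.3 FPKM in the control and 0.755 and 0.741 in the cKO libraries (log2 difference -3.39, SE 0.49, adjusted p = 0.0019), below its 1.63 to 9.82 FPKM in the other wild-type libraries. The synthases of prostaglandin D and thromboxane, Ptgds (from 9.11 and 17.1 to 0.463 and 0.378 FPKM), Hpgds (from 4.03 and 3.51 to 0.307 and 0.213 FPKM) and Tbxas1 (from 8.15 and 6.22 to 0.825 and 0.699 FPKM), fell. With 1 control library left out, 17 or 18 of the 23 prostaglandin and leukotriene genes passed the filter. With 1 cKO library left out, 19 or 20 passed it. Members that passed it through 1 group alone had to be higher in that group. Hpgd, Ptgds, Hpgds and Tbxas1 were below 1 FPKM in both cKO libraries and passed it through the control.

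Among transcription factors, as the deposited table classes them, falls outnumbered rises: of 751 tested 110 rose and 228 fell (median -0.21), or 45 to 68 and 50 to 114 without 1 library. The C2H2 zinc finger family made up much of this, with 18 of 289 higher and 88 lower (7 to 9 and 9 to 34 without 1 library). The architectural high mobility group genes, abundant in embryonic and dividing cells, rose. Hmga1 went from 31.3 and 35.3 to 419 and 402 FPKM (log2 difference 3.59, SE 0.51, adjusted p = 0.0018) and Hmga2 went from 0.47 and 0.422 to 27.7 and 27.5 FPKM (log2 difference 4.31, SE 0.93, adjusted p = 0.0074). Reads of Hmga1 can be shared with its near-identical copy Hmga1b. In the other wild-type cultures Hmga2 was at 8.72 and 0.909 in the 6-month and 19.3 and 24.5 in the 2-month wild-type libraries. The TEAD genes Tead2 (from 7.68 and 6.09 to 20.7 and 19.6 FPKM) and Tead4 (from 0.575 and 0.35 to 5.18 and 4.14 FPKM) rose. All 3 nuclear factor I genes that were called, Nfia, Nfib and Nfix, fell. Nfix was at 36.6 and 45 FPKM in the control and 13.6 and 14.8 in the cKO libraries (log2 difference -1.45, SE 0.14, adjusted p = 0.00058).

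**Figure D5:**
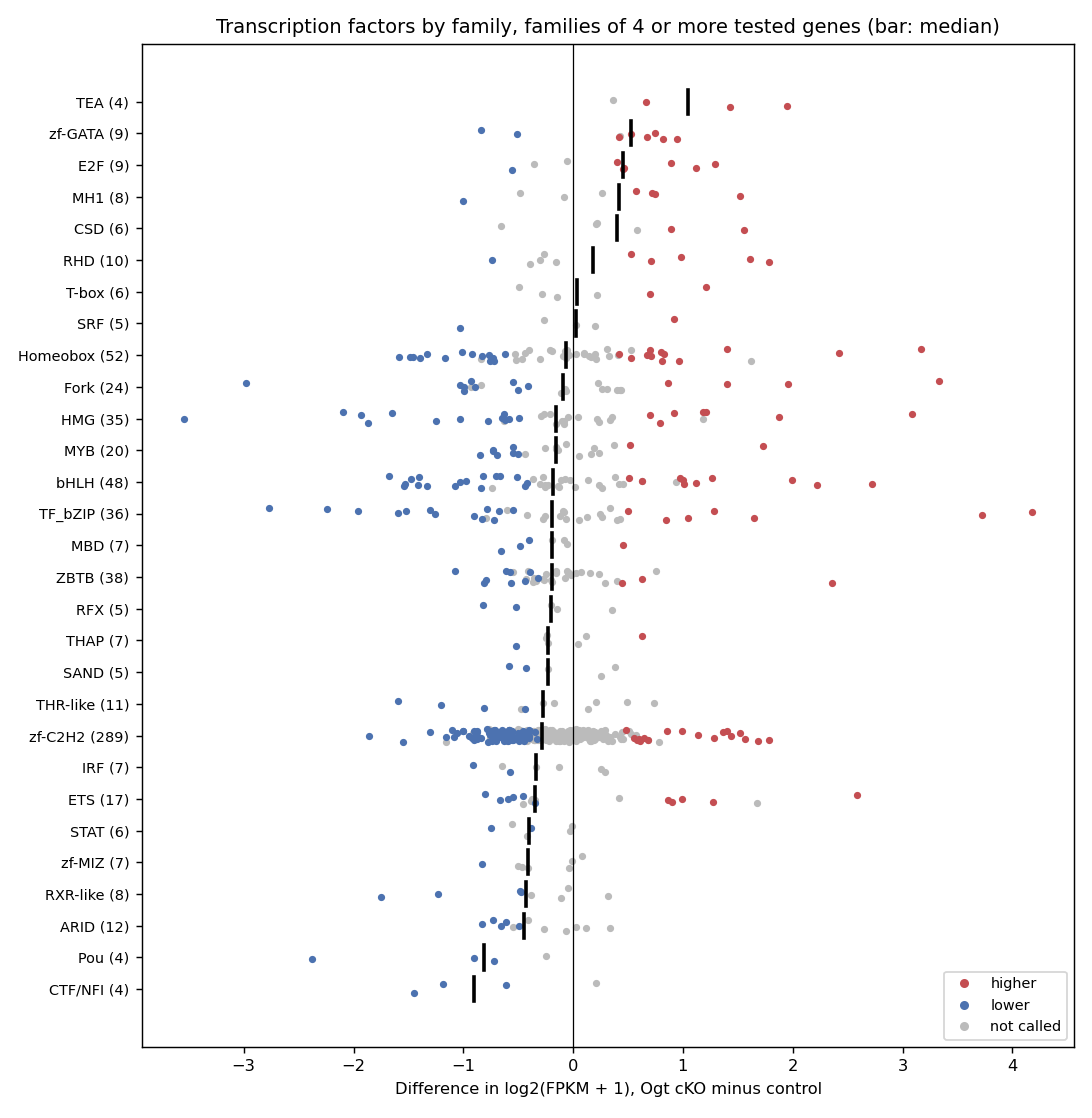
Difference in log2(FPKM + 1), Ogt cKO minus control, of each transcription factor gene in families of 4 or more tested genes, by the families of the deposited table (red higher, blue lower, grey not called; black bar the median, number tested in brackets). TEA, with a median of 1.05, lies at the top and CTF/NFI, with -0.90, at the bottom.

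Immediate early genes, a list that holds AP-1 subunits beside other rapidly induced regulators such as the Dusp phosphatases, rose more often than they fell. Of 28 tested 16 rose and 5 fell (median 0.99; 11 and 1 to 5 without 1 library). Fosl1, for the FRA1 subunit, was at 1.83 and 0.937 FPKM in the control and 42.3 and 40.6 in the cKO libraries (log2 difference 4.18, SE 0.74, adjusted p = 0.0037), above its 1.46 to 35.3 FPKM in the other wild-type libraries. Fosl2, Junb and Maff rose by 0.85, 1.28 and 3.72 on the log2 scale. Fos was at 23.3 and 65 FPKM in the control and 14.8 and 11.3 in the cKO libraries (log2 difference -1.52, SE 0.53, adjusted p = 0.043). Its control libraries differed by more than 2-fold, and both were above the cKO. Jun went from 83.4 and 118 to 66.2 and 69.3 FPKM. Jund went from 73.7 and 75.1 to 43.7 and 42.1 FPKM. Atf3 went from 39.5 and 58.8 to 9.95 and 8.86 FPKM (-2.24). Myc, which drives ribosome biogenesis genes in many cells, was at 4.34 and 6.74 FPKM in the control and 28.8 and 29.2 in the cKO libraries (log2 difference 2.22, SE 0.43, adjusted p = 0.0051).

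Factors of the glial lineage mostly fell. Of 28 tested 3 rose and 19 fell (median -0.86; 9 to 15 fell without 1 library). With a filter of 5 FPKM 2 of 14 rose and 10 fell, and with a pseudocount of 0.1 the median was -1.50. With either control library left out, 21 of the 28 passed the filter of 1 FPKM, and the median was -0.75 or -0.52. Those that passed it through the control alone had to be lower in the cKO. Sox2, a factor of neural stem cells and astrocytes, was at 47.9 and 62.7 FPKM in the control and 10.3 and 14.1 in the cKO libraries (log2 difference -2.10, SE 0.30, adjusted p = 0.0019). It was at 54.4 and 65.9 in the 6-month and 10.1 and 17 in the 2-month wild-type libraries. Sox9, which maintains astrocyte genes, went from 22.2 and 23.4 to 4.9 and 5.61 FPKM (-1.93). Pou3f3, a neural POU factor gene, went from 17.5 and 22.2 to 2.77 and 3.2 FPKM (log2 difference -2.38, SE 0.29, adjusted p = 0.0011), below its 3.95 to 23 FPKM in the other wild-type libraries. Sox10, of oligodendrocytes and Schwann cells, was at 46.9 and 104 FPKM in the control and 6.31 and 4.07 in the cKO libraries (-3.54), and its control libraries differed by more than 2-fold. The list also holds Ctnnd2, a catenin gene, which fell. The ETS factor gene Etv4 went the other way (from 0.769 and 1.36 to 11.7 and 10.8 FPKM, 2.58). The clock output factors of the PAR bZIP family, Dbp (from 15.9 and 17.3 to 3.82 and 3.21 FPKM, -1.96) and Tef (from 21.6 and 27 to 7.55 and 7.09 FPKM, -1.60), also fell; both were chosen after their values were seen.

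Against its own control and the other wild-type cultures alike, fewer genes differed: 162 of the 3153 risers and 108 of the 2759 genes that fell lay outside the range of all 4 other wild-type libraries and passed the test against them as well. The opposite pattern, with the control outside that range, held for 1195 and 1281. The scavenger receptor gene Marco was at 0.441 and 0.176 FPKM in the control and 76.6 and 66.4 in the cKO libraries (log2 difference 5.80, SE 0.21, adjusted p = 4.2e-06) and at most 0.461 in the other wild-type libraries (log2 difference 5.81, SE 0.18, adjusted p = 1.1e-06 against them). Acod1, which encodes the itaconate synthase of activated macrophages, was at 0.789 and 0.425 FPKM in the control and 53.5 and 48.4 in the cKO libraries (log2 difference 5.02, SE 0.50, adjusted p = 0.00058; log2 difference 5.36, SE 0.43, adjusted p = 0.00054 against the other wild-type groups). The acute phase gene Saa3 was at 1.63 and 1.08 FPKM in the control and 63.2 and 67.6 in the cKO libraries (log2 difference 4.83, SE 0.77, adjusted p = 0.0027). Fpr1, a receptor for bacterial formyl peptides (from 1.6 and 0.622 to 28 and 25.5 FPKM), Gpr84, a receptor for medium-chain fatty acids (from 0.4 and 0.112 to 24.5 and 21.9 FPKM), and Il12b, a cytokine subunit gene with no control read (3.17 and 10.3 FPKM in the cKO), were chosen after their values were seen. In the same libraries 0 of 17 microglia and macrophage markers rose, 10 fell and Adgre1 was not called. High levels of several of these genes were not limited to the cKO among the 12 libraries. Marco was at 40.3 and 59.3 FPKM in cultures of 6-month-old mice with the genotype label of an Alzheimer's model (5X APP) and at 68.7 and 64 in wild-type cultures given amyloid-beta. In the same order, Acod1 was at 26.4 and 107 FPKM, then 34.2 and 27.2. Saa3 was at 15 and 121, then 28.2 and 54.9 FPKM, and Fpr1 at 59 and 137, then 94.3 and 55.4, above the cKO. Gpr84 was at 1.84 and 1.5, then 3.22 and 1.53 FPKM, below both cKO libraries, and Il12b at 0.259 and 2.23, then 0.03 and 0.

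Among the genes lower than both the control and the other wild-type cultures was Mt3, described above. Gpr37l1, an astrocyte receptor gene, was at 92.4 and 112 FPKM in the control and 20.6 and 23 in the cKO libraries (log2 difference -2.18, SE 0.22, adjusted p = 0.00059; log2 difference -1.41, SE 0.19, adjusted p = 0.0069 against the other wild-type groups). Sorl1, which encodes the sorting receptor of the amyloid precursor protein, was at 14.7 and 18.1 FPKM in the control and 1.29 and 1.39 in the cKO libraries (log2 difference -2.89, SE 0.29, adjusted p = 0.00058; log2 difference -1.38, SE 0.25, adjusted p = 0.02 against these groups). Hey1, which encodes an effector of Notch, went from 17.1 and 16.6 to 4.87 and 5.42 FPKM (log2 difference -1.54, SE 0.23, adjusted p = 0.0021), against 8.39 to 24.2 FPKM in the other wild-type libraries. Gpr37l1 and Sorl1 were chosen after their values were seen. In these and in Hey1 the 2-month libraries lay nearest to the cKO among the 4 wild-type libraries. Gpr37l1 was lower still in the 5X APP (12.2 and 12.4 FPKM) and amyloid-beta (12.3 and 6.96 FPKM) cultures.

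Interferon and MHC class I genes gave counts that turned with the scaling. Of 30 tested 5 rose and 3 fell (1 to 4 and 0 to 1 without 1 library), beside the 46.8% called over all genes. By contrast, 3 rose and 6 fell under quantile normalization, and 4 rose and 8 fell after rescaling to the total of reads. The 5 risers, H2-Q4 (from 3.58 and 2.69 to 10.2 and 11.5 FPKM), Ifitm3 (from 279 and 248 to 597 and 510 FPKM), Ifit3, Xaf1 and Usp18, lay above all 4 other wild-type libraries, and H2-D1 (from 293 and 253 to 138 and 116 FPKM), H2-T23 and Stat2 fell. Of 29 splicing kinase and SR protein genes 5 rose and 6 fell (median -0.18; 1 and 0 to 4 without 1 library). In this list 2 rose and 9 fell under quantile normalization (median -0.15), and 1 rose and 12 fell after rescaling to the total of reads (median -0.46). The cold-inducible RNA-binding genes in that list went opposite ways. Rbm3 went from 12.4 and 8.85 to 50.6 and 48.3 FPKM (log2 difference 2.13, SE 0.42, adjusted p = 0.0054). Cirbp went from 26.4 and 31.1 to 8.01 and 9.48 FPKM (log2 difference -1.61, SE 0.41, adjusted p = 0.014), and the kinase gene Clk1 went from 7.3 and 7.48 to 2.67 and 3.69 FPKM (-1.02).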

How the data were processed

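RNA was sequenced from 12 untreated or treated cultures in 6 groups of 2, and the 4 libraries of the Ogt cKO and its control are compared here. The authors deposited FPKM values per gene in 1 table with gene lengths, aligned to mm10 per the submitters' processing notes; the aligner, counter and annotation release were not given in the sources used here. FPKM times length gave whole reads within 0.1 for 100% of values, so the depth on genes is known (17128294 to 18705309 reads; 3 reads on a gene of 1 kb are 0.145 to 0.191 FPKM). The library size behind the FPKM was not this depth. Reads on genes over that size were 0.921 and 0.907 in the control and 1.10 and 1.07 in the cKO libraries. Intervals and floors cover counting error only. Limma 3.58.1 (R 4.3.3) was run on log2(FPKM + 1), with all 12 libraries sharing 1 estimate of the spread, an intensity trend, a two-sided test and Benjamini-Hochberg adjustment at 0.05. The fit was also run on simulated data in which few genes changed and all groups otherwise shared the control mean. Nearly every second gene was called in the real data, so that run cannot give the error of the counts above. Limma voom on the recovered reads called 3058 genes higher and 2778 lower. Tables and figures were made with Python 3.11.15, pandas 2.3.3 and matplotlib 3.10.9.

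The labels do not say if the replicate numbers pair the samples, and the main fit did not pair them. The correlation of replicate differences between the groups was 0.0487, a single value across genes that cannot settle the pairing. The members and gene lists were chosen with earlier results of these data known. Genes were named by a rule: Ogt and Mgea5, the 20 largest rises and falls whose higher group averaged 5 FPKM or more, up to 6 called members of each list in each direction above that mean, up to 3 members not called, and genes beside a named family member. Genes outside this rule, chosen after their values were seen, are Gfpt1, Gnpda2, Slc35a3, Tchh, Tgm1, Gjb5, Plau, Bdnf, Vegfa, Rplp0, Rpl17, Psmb9, Cct5, Ctsb, Hexa, Tfeb, Ctsa, Ctsd, Hpgds, Hmga1, Hmga2, Tead2, Tead4, Fosl2, Junb, Dbp, Tef, Fpr1, Gpr84, Il12b, Gpr37l1, Sorl1, Ctnnd2, Fgf5, Fgf7, Gla, Hmga1b, Lgals4, Mcoln1, Mmp12, Nfia, Nfib, Procr, Serpinb8, Synpo2, Usp18 and Vegfc. Promoter sequences are from RefSeq on GRCm38.p6. Alternatives were another pseudocount, filter, scaling, tool and fit, a replicate block, and each library left out. Scaling by the median of ratios gave the same factor, 1.011, in all 12 libraries, so that alternative could not change the balance between libraries.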

Additional observations from a re-analysis of the deposited data

How the results depend on the processing

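The counts of 3153 higher and 2759 lower genes stayed within 1.5 times under another pseudocount, filter, scaling, tool or fit, except that 1594 genes were lower with a filter of 5 FPKM, and 0 genes were called the opposite way in any of them. With 1 of the 4 libraries left out, where the lone sample is assumed to vary like the other groups, 1115 to 1867 genes were higher and 667 to 1348 lower. Ogt was at -0.92 with adjusted p = 0.07 in limma without the filter, and at -1.03 to -0.80 with 1 library left out; Mgea5 was at -1.39 to -1.33. With the replicate number as a block, 3484 genes were higher and 3273 lower (Ogt -0.92, Mgea5 -1.36). In that fit 175 of the 176 called genes named here kept the call. If the numbers pair the samples is not known. In the fit of the 4 libraries alone 4314 were higher and 4137 lower, among them 34 lysosomal genes lower and 33 nuclear respiratory chain genes higher. Quantile normalization turned the medians of hexosamine genes (-0.09) and chaperones (-0.06) and the uncalled Adgre1 (-0.30), Rps29 (-0.20), Rps21 (-0.24) and Rps27 (-0.15). Rescaling to the total of reads turned hexosamine genes (-0.19) and Adgre1 (-0.17), and took collagens to 0.00. Without cKO replicate 1, the uncalled Gfpt1 (0.02), Aldh1l1 (0.22) and Adgre1 (-0.12) changed sign, as did Gfpt1 (0.04) and Adgre1 (-0.19) without control replicate 2. With each library left out in turn, Gfpt1 ranged from -0.05 to 0.04, Aldh1l1 from -0.35 to 0.22 and Adgre1 from -0.19 to 0.32; the cause was not tested. Called genes named here lost the call in 21 of 176 cases without the filter, 10 with quantile normalization, 5 with total reads, 3 with voom and 2 with a pseudocount of 0.1. Gene list counts without 1 library and medians with genes absent from the control at their bound were chosen after seeing the data. Genes with no control read have only a lower bound, which the depth sets.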
